A study of Mus musculus with 6 samples.

Results

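Saa3, Lbp, Orm1, Hp, Lcn2, Cd14, Cp and Itih2 are 8 genes of the acute phase response that lay on opposite sides of the comparison between mammary glands of luteinizing hormone (LH) transgenic and wild type mice. They were chosen by name, with that comparison known, and were read from every probe set whose platform annotation gives exactly 1 gene, that gene being one of the 8. This gave 9 probe sets of the 12488 on the array, 2 of them for Lcn2, and 8 of 8251 genes. A probe set annotated to both Orm1 and its neighbour Orm2 was left out. Because the members were picked on this contrast, their differences are descriptions and carry no test.

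The study hybridised 6 Affymetrix arrays, 3 per group, each with total RNA pooled from the thoracic mammary glands of 3 virgin F1 CF-1/FVB mice aged 16 weeks. The wild type group and the LH-overexpressing transgenic group held 9 mice each, no mouse being in more than 1 pool. Both groups share the strain cross, the age and the virgin state. The promoter that drives the transgene is not given in the sources used here. Values are signals on a linear scale, and each log2 difference is taken from wild type to LH transgenic on log2(signal + 80.0). A positive value is higher in LH transgenic, and the scale understates changes of dim genes. The arrays had median signals between 540.6 and 583.5. Their number, 3 per group, limits the precision.

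The acute phase response is the change in secreted proteins that follows infection or injury. Cytokines of the interleukin-6, interleukin-1 and tumour necrosis factor families drive it, largely in the liver, through the transcription factors STAT3, NF-kappaB and the C/EBP family. Many of the same genes are also transcribed outside the liver. Haptoglobin (Hp) and orosomucoid (Orm1) are made by fat cells, and serum amyloid A3 (Saa3) and lipocalin 2 (Lcn2) by fat cells, macrophages and epithelia, the mammary epithelium among them. The mammary gland of a virgin mouse is an epithelial tree in a pad of fat, so both sources are present in these samples.

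In the LH transgenic glands Saa3, Lbp, Lcn2, Cd14 and Cp were higher, and Itih2, Orm1 and Hp were lower. The differences ran from 2.46 (SE 0.39) for Saa3 to -2.88 (SE 0.27) for Itih2, whose value depends on how dim signals are treated. For 7 of the 8 genes the deposited wild type and LH transgenic signals had no overlap, 4 higher and 3 lower, Lcn2 being the exception. Of the 5731 genes tested 40.7% had no overlap, 19.8% with the LH transgenic pools higher and 20.8% with them lower. Nothing is read from these shares for the members, since the members were chosen on the same contrast. By limma, 21.7% of all genes had an adjusted p under 0.05, 10.0% higher and 11.7% lower, which is the background of the tested lists given later. The bacterial hybridisation controls, RNAs spiked in at a fixed amount, had geometric means of 3359.0 to 4432.6 on wild type arrays. On LH transgenic arrays these were 5219.0 to 7147.0, and the reason for this gap was not tested. When the arrays were scaled to these controls, the median of all genes moved from 0.009 to -0.639, and Cp then lay at -0.07, below 0. On that scale Cp was still 0.57 above the median of all genes.

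**Figure D1:**
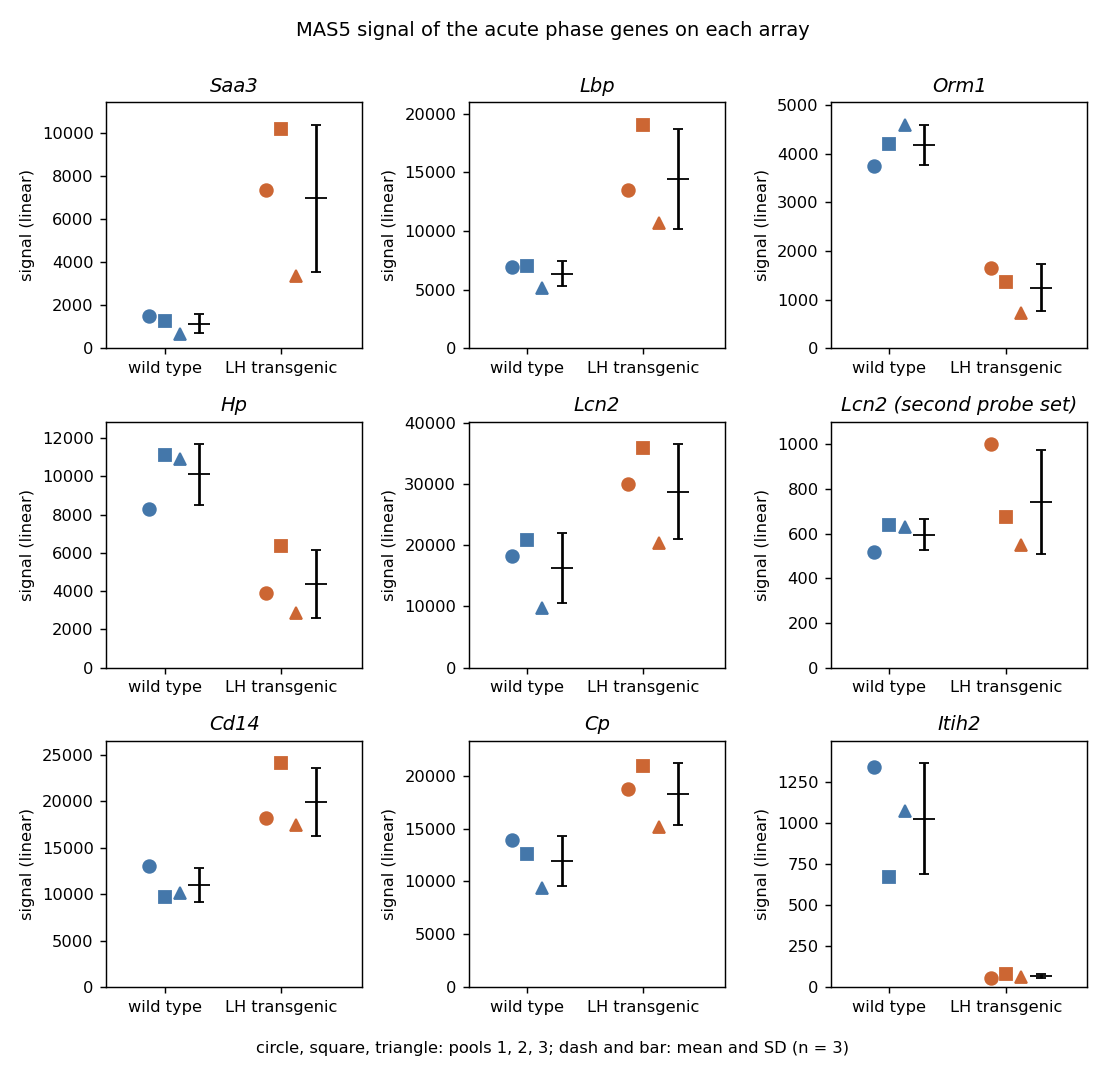
Signal on a linear axis for each of the 9 probe sets, with wild type pools in blue and LH transgenic pools in orange. Circles, squares and triangles are pools 1, 2 and 3, and the dash and bar are the mean and SD over 3 arrays; the groups overlap in the 2 Lcn2 panels, and LH transgenic pool 3 is the lowest of its group in 8 of the 9 panels.

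Saa3 encodes serum amyloid A3, a lipoprotein-bound acute phase protein that is mostly made outside the liver. Its signal was 1496, 1270 and 660.2 in wild type pools 1, 2 and 3, and 7372, 10171 and 3355 in the LH transgenic pools. All LH transgenic pools lay above all wild type pools, and in both groups pool 3 was the lowest. The means were 1142 ± 432 and 6966 ± 3426 (SD, n = 3), a ratio of 6.10, and the log2 difference was 2.46. Leaving out LH transgenic pool 3 gave 2.91, and the bacterial control scale gave 1.80.

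Itih2 lay at the other end. It encodes a heavy chain of inter-alpha-trypsin inhibitor, a plasma protein whose heavy chains are transferred onto hyaluronan and stabilise the matrix around cells. Its signal was 1336, 668.8 and 1069.7 in the wild type pools and 56.3, 78.7 and 61.8 in the LH transgenic pools. The LH transgenic signals all lay below 80.0, the 20th percentile of all signals, and without detection calls they cannot be told from background. The means were 1025 ± 336 and 65.6 ± 11.7, and no fold is given. Itih2 passed the filter on dim probe sets, a mean of at least 336.0 over the 6 arrays, only through its wild type signal. The other members had means above that level in each group by itself. Its log2 difference is set in part by the constant added to dim signals. It was -2.88 with 80.0, -3.92 with no constant and a floor at 16.8, and -1.76 with a constant of 325.5. All LH transgenic signals lay below all wild type signals.

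RefSeq promoter windows (GRCm38.p6) were used for 4 of the 8 members, Saa3, Lcn2, Cp and Itih2, with a second start for Cp. No window was found for Lbp, Orm1 or Hp. Member windows on the chromosome of Cd14 were left out of the search, so Cd14 was not searched. The 250 bases before the start of Saa3 and Itih2, the genes at either end of the range above, and of Lcn2 as a second gene that was higher, are shown 5′ to 3′ on the gene's own strand. Capitals mark letters that match the C/EBP form TTNNGNAAG. The Saa3 window lies inside the span that RefSeq gives for the whole gene, so it belongs to a start within that span.
Saa3, chr7:46715677-46715926, minus strand: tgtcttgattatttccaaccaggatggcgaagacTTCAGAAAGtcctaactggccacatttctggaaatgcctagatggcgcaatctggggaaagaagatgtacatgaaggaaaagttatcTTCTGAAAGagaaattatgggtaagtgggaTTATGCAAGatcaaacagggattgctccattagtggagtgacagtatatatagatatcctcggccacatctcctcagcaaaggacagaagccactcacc
Lcn2, chr2:32387740-32387989, minus strand: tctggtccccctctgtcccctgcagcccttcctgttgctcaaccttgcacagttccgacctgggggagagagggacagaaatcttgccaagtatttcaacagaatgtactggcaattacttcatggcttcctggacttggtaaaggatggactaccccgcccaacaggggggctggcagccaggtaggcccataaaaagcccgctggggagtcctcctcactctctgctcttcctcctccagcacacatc
Itih2, chr2:10130684-10130933, minus strand: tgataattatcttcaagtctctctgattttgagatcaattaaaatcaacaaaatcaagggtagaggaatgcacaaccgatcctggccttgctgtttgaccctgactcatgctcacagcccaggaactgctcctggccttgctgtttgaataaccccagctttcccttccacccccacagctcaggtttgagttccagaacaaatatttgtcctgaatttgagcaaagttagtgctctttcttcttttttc

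The motifs searched on both strands of the 300-base windows were the STAT3 form TTCNNNGAA, the C/EBP form TTNNGNAAT and the NF-kappaB consensus. None of the 5 member windows searched held any of the 3, against 8.3%, 11.5% and 8.46% of all 32851 windows. The other C/EBP ending, TTNNGNAAG, was searched after the first result was seen and can share bases with the other forms. It is present in 15.6% of all windows and in 1 of the 5 member windows, that of Saa3, where it begins at bases -216, -129 and -99 from the start. These matches are letters only, with no measurement of binding.

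Lcn2 encodes lipocalin 2, which binds the siderophores with which bacteria capture iron. Its brighter probe set had 18223, 20863 and 9802 in the wild type pools and 30071, 35872 and 20418 in the LH transgenic pools. The groups overlapped, because LH transgenic pool 3 lay just under wild type pool 2. The means were 16296 ± 5777 and 28787 ± 7807, and the log2 difference was 0.85 (SE 0.28). The dimmer probe set of Lcn2 had means of 595.5 ± 68.0 and 741.8 ± 233.1 and a difference of 0.25 (SE 0.22). It overlapped between the groups too, and the mean of both differences was 0.55. On the bacterial control scale the dimmer probe set lay at -0.36.

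Lbp and Cd14 act in sequence. Lipopolysaccharide-binding protein (Lbp) hands bacterial lipopolysaccharide to Cd14, the co-receptor that passes it to Toll-like receptor 4. Lbp had 6924, 6982 and 5105 in the wild type pools and 13528, 19056 and 10704 in the LH transgenic pools. Its means of 6337 ± 1067 and 14429 ± 4248 gave a ratio of 2.28 and a difference of 1.15 (SE 0.21). Cd14 had 13053, 9648 and 10153 in the wild type pools and 18182, 24070.3 and 17453 in the LH transgenic pools. Its means were 10951 ± 1838 and 19902 ± 3628, with a difference of 0.85 (SE 0.16). For both genes every LH transgenic pool lay above every wild type pool in the deposited signals. That separation holds for this scale only. On the bacterial control scale the differences shrank to 0.47 for Lbp and 0.17 for Cd14.

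Cp encodes ceruloplasmin, the copper-carrying ferroxidase of plasma. It had 13935, 12550.3 and 9333 in the wild type pools and 18750, 20897 and 15154 in the LH transgenic pools. The gap between the groups was narrow, from wild type pool 1 to LH transgenic pool 3, and the difference of 0.62 (SE 0.18) was the smallest among the brightest probe sets of the 8 genes. Among these it was the only one whose sign turned on the bacterial control scale.

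Hp and Orm1, which fat cells make, were lower, whereas Saa3 and Lcn2, which fat cells make too, were higher. Haptoglobin, which binds free haemoglobin, had 8288, 11120 and 10932 in the wild type pools and 3913, 6349.7 and 2840 in the LH transgenic pools. The means were 10114 ± 1584 and 4367 ± 1799, and the difference was -1.26 (SE 0.26). Orosomucoid 1, a plasma lipocalin that carries drugs and steroids, had 3749, 4200.5 and 4587 in the wild type pools and 1660.4, 1371 and 714.6 in the LH transgenic pools. Its wild type mean of 4179 ± 420 was 3.35 times the LH transgenic mean of 1249 ± 485, and its difference was -1.75 (SE 0.26). The wild type pools were close together, with an SD of 10.0% of the mean, while the LH transgenic pools had an SD of 38.8% of theirs. Orm1 and Lcn2 both belong to the lipocalin family and lay on opposite sides of 0.

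**Figure D2:**
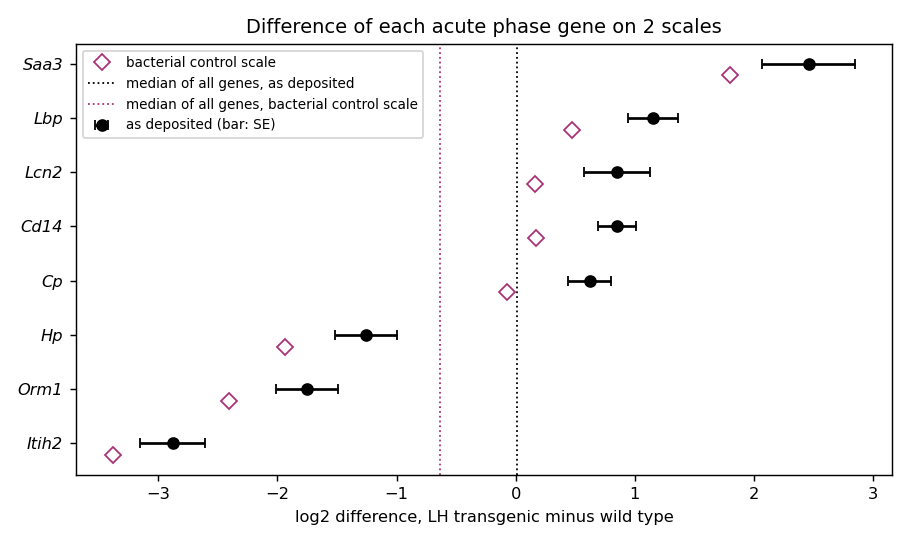
Log2 difference (LH transgenic minus wild type) of each gene's brightest probe set as deposited (black, bars are SE) and after scaling to the bacterial hybridisation controls (open diamonds). Dotted lines mark the median of all genes on each scale, 0.009 and -0.639; Cp is the only gene whose sign differs between the scales, with 0.62 and -0.07.

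Within the LH transgenic group the order of the pools was alike for most genes. Pool 2 was the highest for 7 of the 8 genes and pool 3 was the lowest for 7, whichever direction the gene had against wild type. In the wild type group pool 3 was the lowest for Saa3, Lbp, Lcn2 and Cp and the highest for Orm1. Without LH transgenic pool 3 the genes that were higher stood further above wild type, with 1.34 for Lbp, 1.08 for Lcn2, 0.94 for Cd14 and 0.75 for Cp. The genes that were lower stood nearer to it, with -1.42 for Orm1 and -1.0 for Hp, and Itih2 hardly moved (-2.86). The same array had a mean log2 level of skeletal muscle markers of 12.04, near the wild type pools (12.06 to 12.36) and above LH transgenic pools 1 and 2 (10.02 and 10.39). The part of muscle RNA in these orders was not tested.

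Markers of fat cells and of the epithelium moved in the same comparison. Of 16 tested fat cell markers 11 fell and none rose, with a median of -1.03, against 11.7% of all genes called lower and a median of 0.009. Retn, a fat cell hormone gene, fell by 2.02, the angiotensinogen gene Agt by 1.88, and Adipoq, adiponectin, by 0.69. The summed signal of the fat cell markers was 262227 to 299907 in the wild type pools and 162287 to 182861 in the LH transgenic pools. Fewer fat cells and less RNA per fat cell cannot be told apart in these pooled tissue samples. Of 17 tested luminal epithelial markers 6 rose and 3 fell, with a median of 0.29, while 10.0% of all genes were called higher. Krt8 and Krt18, keratins of luminal cells, differed by 0.27 and 0.04 without a call (adjusted p 0.259 and 0.87). Ehf, an epithelial transcription factor, rose by 1.51 and Prom1 fell by 1.68. The summed luminal signal was 88867 to 97975 in the wild type and 122641 to 140346 in the LH transgenic pools, and on the bacterial control scale 2 markers rose and 6 fell. Of 13 milk genes 11 rose (median 1.13), and 6 rose on the bacterial control scale (median 0.45).

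To set the members against these sources, each gene's log2 level was taken relative to the mean of the fat cell markers on the same array. A factor common to an array cancels in such a ratio for bright genes, but not fully for dim ones such as Itih2, because of the constant of 80.0. Relative to fat cell markers Hp had 0.11 ± 0.19 in wild type and -0.18 ± 0.50 in LH transgenic pools, and the groups overlapped. Its difference of -0.29 became 0.00 when the median of the markers was used, -0.58 without LH transgenic pool 2 and -0.11 without LH transgenic pool 3. Orm1 was lower by 0.78 relative to the fat cell markers, with wild type ratios of -1.21 to -1.09 and LH transgenic ratios of -2.42 to -1.59. Without LH transgenic pool 3 that became -0.53. For Itih2 the ratio differed by -1.91, or -2.92 with a floor and no constant, a size that the dim LH transgenic signals leave uncertain. The 5 genes that were higher stood above the fat cell markers by 1.59 (Cp) to 3.43 (Saa3), without overlap.

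Relative to the luminal markers the 8 genes had the signs that they had by themselves. Saa3 differed by 2.22, with -2.14 to -1.23 in the wild type and -0.14 to 1.34 in the LH transgenic pools. Lbp differed by 0.91, Cd14 by 0.61 and Cp by 0.38, all without overlap. Lcn2 differed by 0.61 with overlap, or 0.31 without wild type pool 3. Itih2, Orm1 and Hp differed by -3.12, -1.99 and -1.5 relative to the luminal markers. A ratio within an array shows unequal change only and does not say which of its parts changed.

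**Figure D3:**
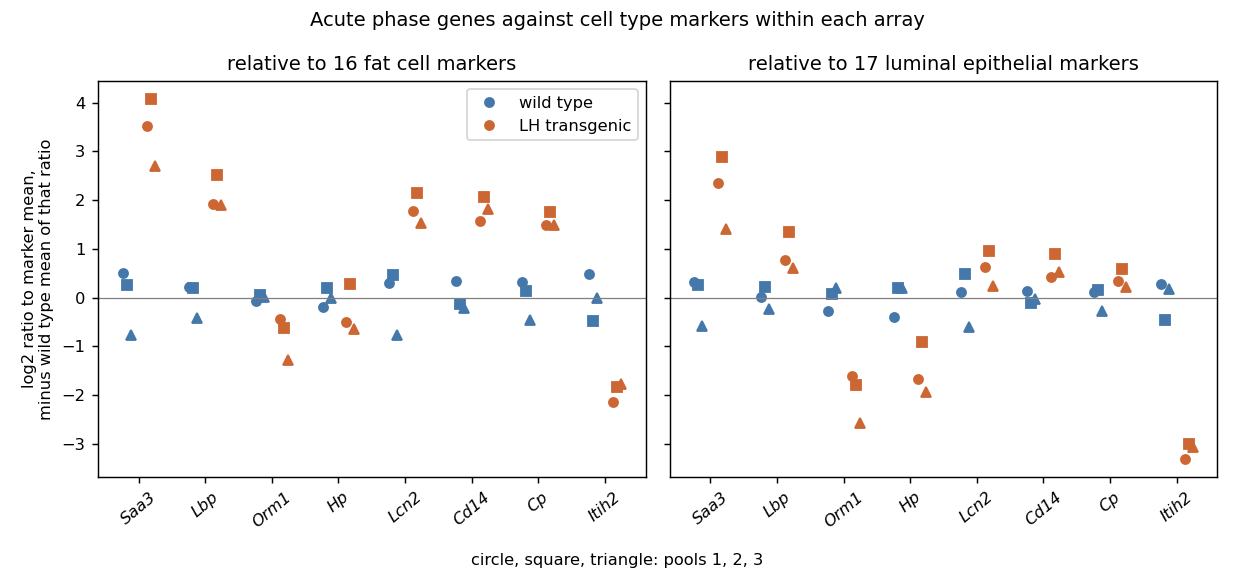
Log2 ratio of each gene to the mean of 16 fat cell markers (left) or 17 luminal epithelial markers (right) on the same array, minus the wild type mean of that ratio. Points are single arrays, blue for wild type and orange for LH transgenic; Hp overlaps between the groups on the left and Lcn2 on the right.

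Macrophages and neutrophils can also carry these transcripts, Cd14 being a monocyte and macrophage receptor and Lcn2 a protein of neutrophil granules. Of 13 tested macrophage markers 5 rose and none fell (median 0.41), while none rose and 3 fell on the bacterial control scale (median -0.25). Without wild type pool 3, 3 rose. Lyz2, lysozyme, rose by 1.02 and Mpeg1 by 0.99, and the summed macrophage signal was 38219 to 58606 in the wild type and 68980 to 83300 in the LH transgenic pools. Relative to the macrophage markers, a reference chosen after the data were seen, Cd14 differed by 0.38, Lcn2 by 0.38 and Cp by 0.15, each with overlap between the groups. Saa3 and Lbp differed by 1.99 and 0.68 on that reference, without overlap. Relative to the milk genes, also chosen later, Saa3 was 1.09 higher, Lbp differed by -0.22 and Cd14 by -0.52 with overlap, and Lcn2 (-0.52) and Cp (-0.76) were lower without overlap.

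Of 13 neutrophil markers 7 were tested and S100a8, a calcium-binding protein of neutrophils, rose by 1.07, while none rose and 3 fell on the bacterial control scale. The 6 that were not tested, S100a9, Mpo, Ngp, Cxcr2, Mmp8 and Ly6g, stayed at or below a signal of 165.4. The summed neutrophil signal was 10727 to 21105 in the wild type and 15394 to 32334 in the LH transgenic pools, and most of it was Ltf, the lactoferrin gene, which mammary epithelium also transcribes. Ltf was named after its values were seen. It had 13769 ± 5243 and 22705 ± 9297 and was not called (0.70, adjusted p 0.212). Liver markers were dim. Of 12 on the array only Cps1 was tested, with 251.5 ± 42.8 and 488.3 ± 165.6, and it was not called by limma (adjusted p 0.0632), though its unadjusted p was under 0.05. The other 11 had signals of at most 402.0, and albumin (Alb) had 358.9 ± 11.2 and 272.6 ± 24.8. The part of macrophages and neutrophils in the members' differences was not tested.

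Apart from the members, 113 genes of acute phase proteins, their cytokines and receptors, lipopolysaccharide sensing, the Itih family and metal handling were listed. Of these 88 were on the array and 43 were tested, of which 9 rose and 10 fell. This is 20.9% and 23.3% of those tested, while 10.0% and 11.7% of all genes rose and fell. On the bacterial control scale 2 rose and 21 fell. The lists were chosen with earlier results of these data known, and no set test was run. Without wild type pool 3 the positive acute phase, cytokine and iron lists had 0, 1 and 1 genes higher, against 2, 2 and 7 with all arrays. Lower were 1, 2 and 2 genes, against 2, 4 and 2.

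Of the other positive acute phase proteins 24 were on the array, and 7 passed the filter with a median of -0.44. Serpina3n, a protease inhibitor, fell from 6879 ± 604 to 3360 ± 520 (log2 -1.02, adjusted p 0.00163), and Orm3 fell from 503.4 ± 59.2 to 251.1 ± 72.3 (-0.84, adjusted p 0.0304), the same direction as Orm1. Orm3 lost its call without any of 4 of the 6 arrays in turn. The metallothionein genes Mt1 and Mt2, which bind zinc and copper, rose by 0.76 and 0.74 (adjusted p 0.0481 and 0.034). Neither was called without wild type pool 1, 2 or 3 or LH transgenic pool 1 or 2. Without LH transgenic pool 3, 3 members of the list rose and 3 fell. Saa2, a serum amyloid gene of the same family as Saa3, had 6314, 7897 and 2888 in the wild type pools and 26083, 27269.8 and 5754 in the LH transgenic pools. LH transgenic pool 3 lay inside the wild type range, and the difference of 1.60 was not called (adjusted p 0.0708). This brighter probe set of Saa2 is of a type whose probes can match several members of a gene family. By it Saa2 and its near copies cannot be separated. A dimmer probe set of Saa2, with a mean signal of 1231.0, differed by 0.80 and was not called by limma either (adjusted p 0.145 over probe sets). Saa1 was not analysed here.

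The 17 positive acute phase genes that were not tested had signals of at most 571.5. Among them Fgg, a fibrinogen chain named here after its values were seen, had 358.0 ± 116.6 in wild type and 27.5 ± 21.0 in LH transgenic pools. Crp, Apcs and Fga, classic products of the liver, had at most 53.8, 122.2 and 49.3. Of the negative acute phase proteins, those that drop in plasma during the response, Rbp4 was the single one tested. Rbp4, the retinol carrier made by liver and fat cells, fell from 8245 ± 310 to 1947 ± 390 (log2 -2.05, adjusted p 0.000105).

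Of the Itih family and the hyaluronan matrix 3 genes were tested and 1 fell, with a median of -1.18. Itih5 fell from 9522 ± 643 to 4131 ± 865 (log2 -1.21, adjusted p 0.00131), with 9003, 9323 and 10241 in the wild type pools and 4900, 3195 and 4298 in the LH transgenic pools. It changed in the direction of Itih2. The matrix proteoglycan gene Vcan had a difference of -1.18 and was not called (adjusted p 0.0519), and 2 of the 3 genes fell when LH transgenic pool 1 was left out. Itih1, Itih3 and Itih4 had signals of at most 34.0, 197.3 and 207.8. Ambp, which encodes the light chain that the Itih heavy chains join, reached at most 34.7.

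Of the partners of Lbp and Cd14 in lipopolysaccharide sensing 6 were tested with limma and none was called, while 2 had an unadjusted p under 0.05 (median 0.28, and -0.39 on the bacterial control scale). Myd88, the adaptor of Toll-like receptors, had 1188 ± 96.3 and 1498 ± 48.7 (0.32, adjusted p 0.122), and Traf6 had a difference of 0.40 (adjusted p 0.0805). Tlr4 and Ly96, the receptor complex itself, were not analysed here.

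Of 14 tested cytokines, receptors and factors of the response 2 rose and 4 fell, with a median of -0.23. Il6ra, the ligand-binding chain of the interleukin-6 receptor, had 289.7, 509.0 and 508.5 in the wild type pools and 1814.6, 1616 and 1417 in the LH transgenic pools. It rose from 436 ± 127 to 1616 ± 199 (log2 1.74, adjusted p 0.000819), and its call held under all 15 alternatives tried. Il6st, the signalling chain of the same receptor, fell by 0.49 (adjusted p 0.0202), a call that a second, dimmer probe set did not share (-0.06). Il1r1, the interleukin-1 receptor, fell by 0.82 and Tnfrsf1a, a receptor of tumour necrosis factor, by 0.46, again with a second, dimmer probe set that was not called (-0.01). For Nfkbia the brighter probe set, which stands for the gene in these counts, was not called by limma (0.53, adjusted p 0.0644). Its dimmer probe set rose by 0.91 (limma adjusted p 0.00269 over probe sets). Leaving out wild type pool 1, 2 or 3 left 1, 2 and 2 genes of the list lower.

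Among the transcription factors Cebpa, a C/EBP factor that drives fat cell differentiation, fell from 29403 ± 5554 to 14992 ± 3565 (log2 -0.98, adjusted p 0.00828). Cebpb rose from 8421 ± 209 to 12009.5 ± 1583.8 (0.50, adjusted p 0.0226), a direction that turned to -0.19 on the bacterial control scale, and its call was lost when any of 4 of the 6 arrays was left out. Cebpd (0.29, adjusted p 0.206) and Stat3 (0.22, adjusted p 0.361) were not called. The cytokine genes Il6, Il1b and Tnf had signals of at most 73.6, 246.0 and 199.8 and were not tested.

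Of 14 tested genes of iron, haem and copper handling 7 rose and 2 fell (median 0.62, and -0.05 on the bacterial control scale, where none rose and 4 fell). Heph, hephaestin, a membrane-bound relative of ceruloplasmin, had 1373, 1265 and 1052 in the wild type pools and 340.2, 293.0 and 665.7 in the LH transgenic pools. It fell from 1230.1 ± 163.5 to 433.0 ± 202.9 (log2 -1.41, adjusted p 0.00484), opposite in sign to Cp. Lrp1, a scavenger receptor that takes up haemopexin with its haem, fell by 0.92. Atp7a, a copper pump that loads copper enzymes, rose from 984.0 ± 156.7 to 1920 ± 564 (0.88, adjusted p 0.0154), a call lost without 1 of the 6 arrays. Mt1 and Mt2, described above, are in this list too. The count of 7 became 2, 3 and 1 without wild type pool 1, 2 or 3. It became 2 and 4 without LH transgenic pool 1 or 2, and 8 without LH transgenic pool 3. The falls of Heph and Lrp1 were called in each of these 6 fits.

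**Figure D4:**
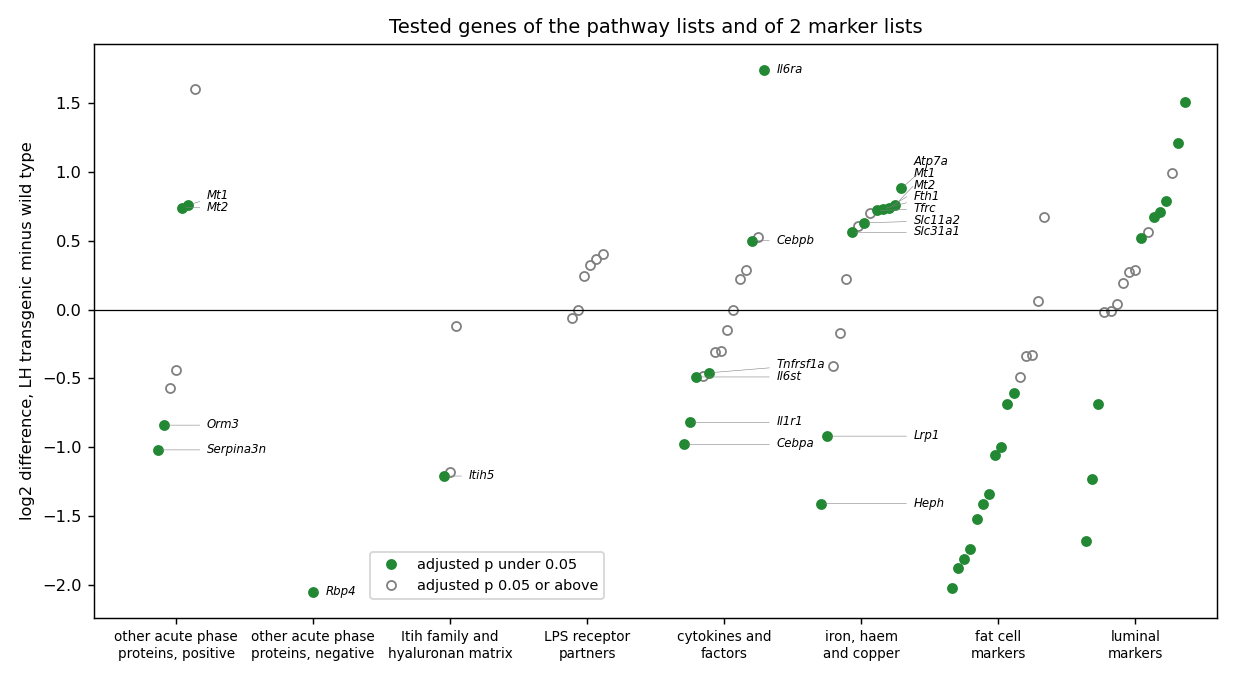
Log2 difference (LH transgenic minus wild type) of every tested gene in 6 pathway lists, which leave out the 8 members, and in the fat cell and luminal marker lists. Filled points had an adjusted p under 0.05 by limma and are named in the pathway lists; 11 of 16 fat cell markers lie among them below 0, and on the bacterial control scale the filled points of Cebpb, Slc11a2, Slc31a1 and the luminal marker Krt19 turn below 0, with Cldn7 at 0.00.

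The genes whose levels followed a member most closely were ranked by Pearson's r of log2 levels over the 6 arrays, which holds the difference between the groups as well as the spread within them. With 5731 genes and 6 arrays, high values are easily reached, and they are given as a description. Abcg2 (r = 0.999), Stxbp2 and Trp53-ps were nearest to Saa3, and Txnl1 (0.994), Mob2 and Saa3 to Lbp. Saa3 was the only member among the 3 nearest genes of another. Akt1 (0.993), Slc35c2 and Lipa were nearest to Lcn2, Ehhadh (0.997), Gm20362 and Limk1 to Cd14, and Fads1 (0.998), Eif4a1 and Gcgr to Cp. Among the genes that were lower, Dnm1 (0.999), Adam15 and Pnpla2, the last a triglyceride lipase of fat cells, were nearest to Orm1. Ndufb10 (0.994), Ldhb and Scarb1 were nearest to Hp, and Bckdhb (0.998), Mfng and Kcnk2 to Itih2.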

How the data were processed

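The authors deposited a linear intensity for each probe set on each array, and the submitters' processing notes name MAS5. Its version, any detection calls and the build were not stated in what was used here. Genes were named through the platform annotation, from the 10833 probe sets with 1 gene, and 66 control probe sets were left out of tests. The values were used as deposited, and log2(signal + 80.0) was computed, 80.0 being the 20th percentile. The 7453 probe sets with a mean of at least 336.0, the 40th percentile, were fitted with limma 3.58.1 in R 4.3.3 (eBayes with a trend, 2 groups of 3 arrays, no covariate, two-sided). Each gene was read from its brightest probe set, with Benjamini-Hochberg adjustment over 5731 genes, with a threshold of 0.05. The script was tested on simulated data. Pools were numbered in accession order as names only, since the labels give no replicate numbers, and the labels hold no pairing and no batch.

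The members, lists and tests were chosen with earlier results of these data known. All members were named with every probe set, up to 4 called genes per pathway list and up to 2 per cell list by size, a set list of cytokine, receptor, factor and marker genes (Il6, Stat3, Cebpb, Alb, Adipoq, Krt8 and others) where a probe set exists, and the 3 nearest genes of each member. Other named genes were chosen after their values were seen. Lists of basal epithelium, endothelium, fibroblast, skeletal muscle and lymphocyte markers were run as well. Of their tested members 1 of 7 rose and 1 fell in the basal list, 7 of 9 fell in the endothelial, 4 of 7 in the fibroblast and 4 of 9 in the muscle list. The fibroblast count was 2 without wild type pool 3, and the muscle count 2 without LH transgenic pool 1 and 9 without LH transgenic pool 3. On the bacterial control scale 0 rose and 4 fell in the basal list, and 8, 7 and 9 fell in the other 3. None of 3 lymphocyte markers was called by limma, with 1 at an unadjusted p under 0.05, while 2 fell on the bacterial control scale.

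The alternatives were quantile normalization, median centring, scaling to 9 bacterial hybridisation controls, a floor at 16.8 with no pseudocount, a pseudocount of 325.5, no filter, a filter at 933.0, eBayes without a trend, robust eBayes and leaving out each array. Figures were drawn with matplotlib 3.10.9 in Python 3.11.15.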

Additional observations from a re-analysis of the deposited data

How the results depend on the processing

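Under quantile normalization and median centring the differences of the 8 members moved by less than the spread between arrays. Robust eBayes, eBayes without a trend and the filters cannot change these differences, so they say nothing of their stability. The stricter filter leaves Itih2 untested. With bacterial control scaling the members' differences were 1.80 for Saa3, 0.47 for Lbp, 0.16 for Lcn2, 0.17 for Cd14 and -0.07 for Cp. Those of the lower genes were -2.41 for Orm1, -1.94 for Hp and -3.38 for Itih2. On that scale 3242 genes were called against 1242, 2 luminal markers rose and 6 fell, 0 genes of iron, haem and copper handling rose, 9 of the cytokine list fell and 4 of the positive acute phase list fell. That scaling put the median of all genes at -0.639. The Itih2 difference was -3.92 with a floor and no pseudocount and -1.76 with the larger pseudocount; relative to fat cell and luminal markers it was -2.92 and -4.16 with the floor. With the median of the fat cell markers as the reference, Hp differed by 0.00 and Cd14 by 2.12. The positive acute phase list had 1 gene lower with no filter or with the stricter filter, and the iron list had 3 genes higher with no filter and 4 without a trend. The cause was not tested beyond the number of genes that each filter leaves.

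Leaving out each array gave 729 (without wild type pool 3) to 1307 called genes, 11 to 12 fat cell markers lower, 4 to 8 luminal markers higher and 2 to 3 lower, 1 to 8 iron genes higher, 1 to 5 cytokine list genes lower and 1 to 3 positive acute phase genes lower. The members' differences ranged over 2.12 to 2.91 (Saa3), 0.93 to 1.34 (Lbp), 0.52 to 1.08 (Lcn2), 0.71 to 0.99 (Cd14), 0.45 to 0.75 (Cp), -1.98 to -1.42 (Orm1), -1.57 to -1.0 (Hp) and -3.13 to -2.67 (Itih2). No paired analysis was possible because the labels give no replicate numbers that the groups share. Signal over background is unknown without detection calls, which limits what can be said of Itih2 in the LH transgenic pools and of the dim acute phase genes.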
